A study of Mus musculus with 16 samples.

Results

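Of the 8404 regions that the authors list as enriched for beta-hydroxybutyrylated histone H3 lysine 9 (H3K9bhb) in fasted mice, 725 lay inside long protein-coding genes on chromosomes 1 to 19. A gene was counted as long when its RefSeq span in mm10 was 200 kb or more. The centre of a region had to lie inside such a gene and more than 1 kb from every end of a protein-coding gene, and regions in runs of 5 or more with gaps of at most 20 kb were left out. The mice were of strain C57BL/6J, aged 35 days after birth (P35), and had been fasted for 48 h or fed ad libitum before the occipital cortex was taken and homogenised. Each feeding state had 4 immunoprecipitated and 4 input libraries, 16 in all, and the labels give the mice no genotype other than the strain. The comparison asks where the mark differs between fasted and fed cortex. The deposited lists hold a position and a log likelihood ratio (log-LR, the authors' value for each region, with its log base not stated) and no value per library. Depth, fold change and the spread between mice are therefore unknown, no test between mice was possible, and the intervals below are 95% intervals that cover counting error only. The labelled tissue could not be checked against its markers, because the lists hold no expression values. In a homogenate, a change in the mark within a cell type and a change in the share of that cell type cannot be told apart.

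Beta-hydroxybutyrate is a ketone body that the liver makes during fasting and that the brain takes up as fuel, and it also supplies the acyl group of a lysine modification on histones. The longest mammalian genes consist almost wholly of introns, and many of them encode adhesion proteins, synaptic proteins and ion channels of neurons. Such genes often hold further transcription starts far downstream of the first one, which give shorter transcripts, and many mammalian starts lie in CpG islands, stretches that kept a high frequency of the CG dinucleotide.

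Some of the regions inside long genes lay on annotated internal starts of the same gene, and the start windows of 7 of them are printed here because a region covers a large part of each. A window runs from 250 bases before to 50 bases after a start, as RefSeq places it on GRCm38.p6, the build also called mm10. These are the starts over 10 kb from the 5′ end of the gene with at least 100 bases in a region, a rule chosen after the values were seen. Where windows of 1 gene overlapped, the window with more bases in the region was kept. Sequences are written 5′ to 3′ along the gene, and capitals mark the bases inside the deposited fasted region. Pid1, which encodes a phosphotyrosine interaction domain protein studied in insulin signalling of fat cells, has its window at chr1:84284596-84284895 on the minus strand. The window of Anks1b, a postsynaptic ankyrin repeat protein, is at chr10:90829404-90829703 on the plus strand. Rap1gap2 encodes an activator of the GTPase of Rap1 and has its window at chr11:74522752-74523051 on the minus strand. Abr has its window at chr11:76571335-76571634 on the minus strand. The window of Asic2, an acid-sensing ion channel, is at chr11:81152854-81153153 on the minus strand. The window of Phldb2, a protein that anchors microtubules at the cell cortex, is at chr16:45844329-45844628 on the minus strand. The window of Gse1 is at chr8:120488616-120488915 on the plus strand.
Pid1: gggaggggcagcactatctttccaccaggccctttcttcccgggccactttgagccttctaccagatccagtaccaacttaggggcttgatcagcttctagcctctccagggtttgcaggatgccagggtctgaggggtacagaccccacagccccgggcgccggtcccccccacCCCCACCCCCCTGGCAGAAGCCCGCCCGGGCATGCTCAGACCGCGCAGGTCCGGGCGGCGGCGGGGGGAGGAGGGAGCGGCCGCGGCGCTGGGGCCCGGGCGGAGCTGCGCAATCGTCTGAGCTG
Anks1b: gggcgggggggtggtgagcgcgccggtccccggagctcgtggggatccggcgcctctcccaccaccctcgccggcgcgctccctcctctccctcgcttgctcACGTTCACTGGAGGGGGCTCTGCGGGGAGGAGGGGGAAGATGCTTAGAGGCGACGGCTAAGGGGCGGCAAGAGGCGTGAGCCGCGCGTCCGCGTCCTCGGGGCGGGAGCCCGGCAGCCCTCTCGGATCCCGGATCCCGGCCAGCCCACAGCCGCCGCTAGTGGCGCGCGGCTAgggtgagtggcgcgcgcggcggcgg
Rap1gap2: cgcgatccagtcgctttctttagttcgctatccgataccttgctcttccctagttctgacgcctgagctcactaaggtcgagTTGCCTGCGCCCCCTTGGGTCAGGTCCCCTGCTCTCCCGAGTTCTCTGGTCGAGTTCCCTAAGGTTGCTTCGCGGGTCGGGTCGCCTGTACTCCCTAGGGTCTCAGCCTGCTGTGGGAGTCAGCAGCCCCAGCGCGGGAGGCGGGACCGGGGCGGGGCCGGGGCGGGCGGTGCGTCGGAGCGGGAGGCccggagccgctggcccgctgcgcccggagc
Abr: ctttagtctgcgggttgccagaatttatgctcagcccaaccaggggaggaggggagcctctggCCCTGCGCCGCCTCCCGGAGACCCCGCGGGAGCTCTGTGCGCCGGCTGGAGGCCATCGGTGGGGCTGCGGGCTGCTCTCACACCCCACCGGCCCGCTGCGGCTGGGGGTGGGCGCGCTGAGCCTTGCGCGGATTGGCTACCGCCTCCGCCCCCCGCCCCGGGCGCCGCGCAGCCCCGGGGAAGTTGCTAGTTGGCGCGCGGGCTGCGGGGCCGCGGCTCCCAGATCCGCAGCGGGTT
Asic2: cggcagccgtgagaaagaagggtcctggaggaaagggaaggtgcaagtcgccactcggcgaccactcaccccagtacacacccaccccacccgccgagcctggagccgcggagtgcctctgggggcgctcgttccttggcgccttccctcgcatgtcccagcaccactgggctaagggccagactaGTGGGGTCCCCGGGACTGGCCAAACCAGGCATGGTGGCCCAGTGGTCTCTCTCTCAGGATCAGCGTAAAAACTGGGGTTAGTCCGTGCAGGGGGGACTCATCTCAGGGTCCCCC
Phldb2: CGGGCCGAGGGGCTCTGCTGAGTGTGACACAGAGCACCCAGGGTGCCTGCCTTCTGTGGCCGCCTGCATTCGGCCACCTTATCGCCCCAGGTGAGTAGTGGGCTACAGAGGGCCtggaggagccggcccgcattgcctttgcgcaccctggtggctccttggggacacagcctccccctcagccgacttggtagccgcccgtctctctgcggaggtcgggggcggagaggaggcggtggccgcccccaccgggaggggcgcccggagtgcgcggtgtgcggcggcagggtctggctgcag
Gse1: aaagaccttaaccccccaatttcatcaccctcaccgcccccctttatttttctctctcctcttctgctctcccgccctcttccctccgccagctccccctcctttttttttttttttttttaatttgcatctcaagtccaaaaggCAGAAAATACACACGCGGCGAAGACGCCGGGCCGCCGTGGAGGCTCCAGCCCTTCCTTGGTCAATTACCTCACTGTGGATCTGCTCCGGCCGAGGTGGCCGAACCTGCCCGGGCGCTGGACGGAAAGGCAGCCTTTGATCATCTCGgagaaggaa

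Regions covered 125 of the 300 bases at the Pid1 start, 173 at the Anks1b start, 188 at the Rap1gap2 start and 237 at the Abr start. They covered 114 bases at the Asic2 start, 114 at the Phldb2 start and 146 at the Gse1 start. The 7 windows held between 16 CpGs, at Asic2, and 41 CpGs, at Anks1b. For contrast, an internal start of Cntnap2, a neurexin family adhesion protein, at chr6:47244146-47244445 on the plus strand had no region within 1 kb and 3 CpGs. An internal start of Dlg2, a scaffold of the postsynaptic density, at chr7:92062144-92062443 on the plus strand had no region within 1 kb and 1 CpG. Both were chosen as examples after their values were seen.
Cntnap2: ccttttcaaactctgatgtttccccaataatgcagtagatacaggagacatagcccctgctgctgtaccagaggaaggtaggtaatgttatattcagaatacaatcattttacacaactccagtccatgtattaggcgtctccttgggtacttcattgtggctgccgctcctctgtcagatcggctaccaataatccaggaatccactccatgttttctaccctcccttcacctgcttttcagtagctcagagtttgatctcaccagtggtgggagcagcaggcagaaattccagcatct
Dlg2: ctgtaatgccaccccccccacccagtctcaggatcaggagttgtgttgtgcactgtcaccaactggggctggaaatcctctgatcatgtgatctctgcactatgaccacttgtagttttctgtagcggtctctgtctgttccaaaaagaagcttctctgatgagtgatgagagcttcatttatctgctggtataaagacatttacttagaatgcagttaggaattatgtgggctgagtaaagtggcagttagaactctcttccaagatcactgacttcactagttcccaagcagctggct

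The 725 regions were narrow, and their log-LR lay close to that of other fasted regions. Their log-LR had a median of 4.87 with quartiles of 4.08 and 6.00, a lowest value of 3.22 and a highest of 154. Their width had a median of 201 bp with quartiles of 152 and 280 bp and ran from 120 to 1268 bp. Together they covered 170 kb. A log-LR of 10 or more was found in 21 of them, 2.90%. It was found in 54 of 1246 regions inside genes under 200 kb, 4.33%, and 143 of 3056 regions outside protein-coding genes, 4.68%. Within 1 kb of a protein-coding gene end, 25 of 2324 regions had such a value, 1.08%. Regions within 1 kb of a protein-coding gene end had a median log-LR of 4.89, those inside genes under 200 kb 4.99 and those outside protein-coding genes 4.79. Across the 725 regions, width and log-LR had a Spearman rho of 0.264, given as a description, since both come from the same signal in the same libraries.

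Longer genes held a region more often, while the number per Mb was no higher in the longest classes. Of the 945 long autosomal genes, 430 held a region inside, 45.5% (42.4 to 48.7%), against 7.31% of autosomal protein-coding genes of any length, 1511 of 20665. Of these 430 genes, 241 held 1 region, 116 held 2, 48 held 3, 15 held 4, 5 held 5, 4 held 6 and 1 held 11. These counts add up to 737, because 3 regions lie in several overlapping long genes and were counted in each. Of the 430 genes, 10 share a region of 6.40 in the protocadherin alpha cluster on chromosome 18, and these 10 rest on 2 regions in all. The share of genes with a region was 33.7% of 412 genes of 200 to 300 kb, 46.7% of 317 genes of 300 to 500 kb, 59.6% of 161 genes of 500 to 1000 kb and 85.5% of 55 genes of 1000 kb or more. Over the same classes the density was 1.96, 1.97, 1.64 and 1.70 regions per Mb. Across long genes, length and number of regions had a Spearman rho of 0.304.

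**Figure D1:**
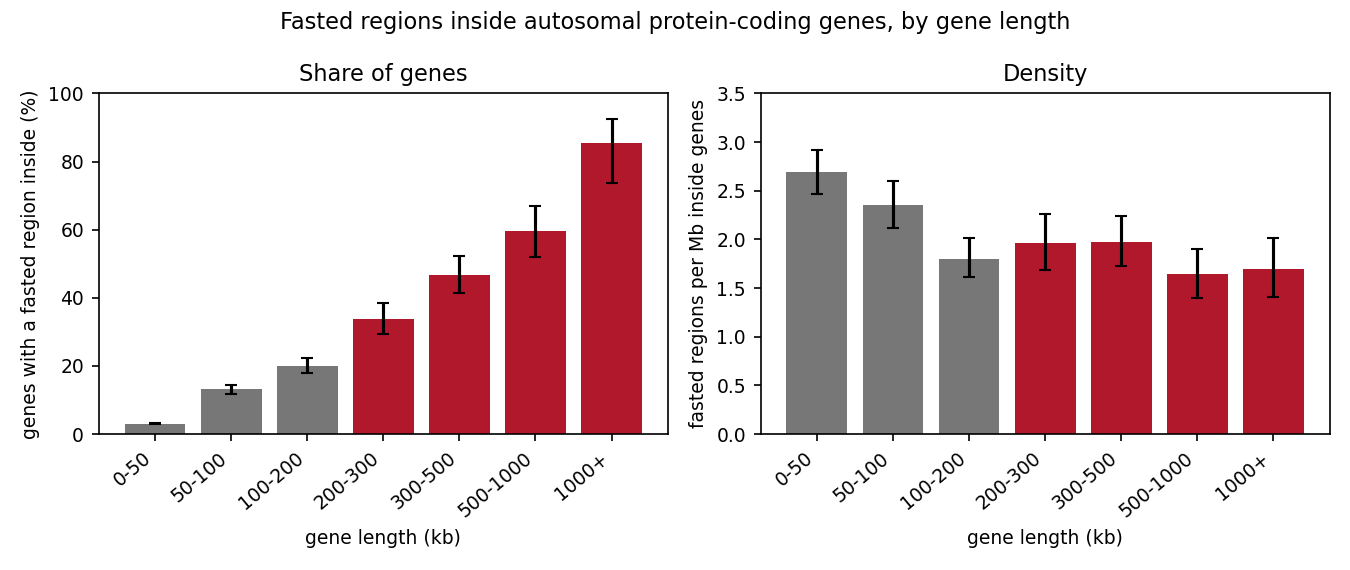
Share of autosomal protein-coding genes with a fasted region inside (left, percent, with Wilson intervals) and fasted regions per Mb inside genes (right, with exact Poisson intervals), by gene length in kb, with genes of 200 kb or longer in red and shorter genes in grey. The share climbs to 85.5% in genes of 1000 kb or more, while the density of the 4 red classes lies between 1.64 and 1.97 regions per Mb.

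Over all long genes the density was 1.83 regions per Mb (1.69 to 1.96), against 2.28 (2.16 to 2.41) in genes under 200 kb, a ratio of 0.799 (0.729 to 0.876). Genes of 100 to 200 kb held 1.80 per Mb (1.61 to 2.01), close to the long genes. The higher densities were those of genes under 50 kb, 2.69, and of 50 to 100 kb, 2.35. With regions and bases within 3 kb of gene ends left out in place of 1 kb, the ratio was 0.967. Away from annotated internal starts, at more than 1 kb from each, long genes held 1.68 regions per Mb and genes under 200 kb held 1.67. Counted only in genes with an entry in the RefSeq start table, these densities were 1.60 and 1.58. DNA outside protein-coding genes held 2.15 regions per Mb, and the 1 kb on either side of gene ends held 31.1. None of these differences was tested.

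Both limits of the rule lay in a continuous range of values. The 35 regions at 1000 to 2000 bp from a gene end had a median log-LR of 5.08, and the 61 regions of long genes at 500 to 1000 bp, which were not counted, had 4.93. Among 108 genes of 200 to 220 kb, 37 held a region, and among 138 genes of 180 to 200 kb, 39 did. Each of the 2 sets of genes held 49 regions.

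Regions were most frequent just inside the 5′ end of a long gene, and no like excess was seen just inside the 3′ end. Strand was known from the RefSeq start table for 707 long genes, with 531 of the regions. At 1 to 2 kb from the 5′ end there were 21 regions, 30.2 per Mb (18.7 to 46.2). At the same distance from the 3′ end there was none in 0.699 Mb, which allows up to 4.29 per Mb. At 2 to 5 kb the density was 10.9 per Mb from the 5′ end and 2.37 (0.770 to 5.53) from the 3′ end. At 5 to 10 kb it was 2.55 and 0.283 (0.00717 to 1.58). Beyond 10 kb from the 5′ end every distance class lay between 1.29 and 1.77 regions per Mb. The limit of 4.29 per Mb lies above these values, so the count at 1 to 2 kb from the 3′ end shows no scarcity there. Of the 531 regions, 307 lay nearer the 5′ end and 224 nearer the 3′ end. Of the 53 regions 1 to 10 kb from the 5′ end, 22 lay within 1 kb of an annotated internal start of the same gene and 31 did not.

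**Figure D2:**
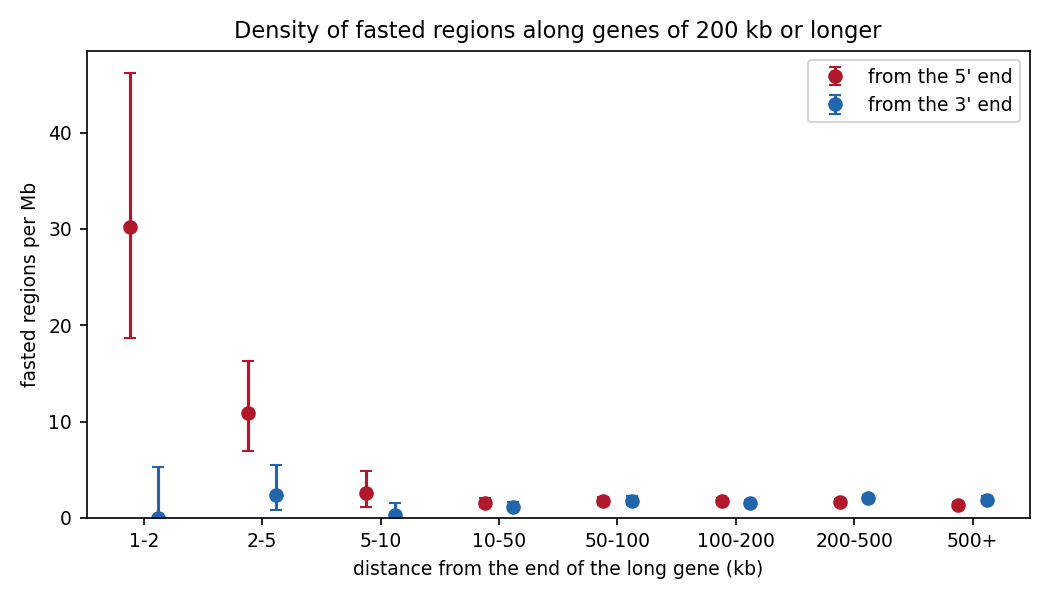
Fasted regions per Mb, with exact Poisson intervals, by distance in kb from the 5′ end (red) and the 3′ end (blue) of genes of 200 kb or longer. The classes at 1 to 2 kb and 2 to 5 kb from the 5′ end, 30.2 and 10.9 regions per Mb, stand above all other classes.

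The named genes with a region just inside the 5′ end included receptors and the amyloid precursor. Adgrl3, the adhesion receptor latrophilin 3, held 5 regions, of which 3 lay 1.47, 2.74 and 3.15 kb from its 5′ end, with log-LRs of 3.65, 3.48 and 8.69. All 3 of its annotated internal starts lie in the same stretch, and its other 2 regions, of 3.84 and 3.64, lay 360.8 and 689.1 kb from the 5′ end. App, the amyloid precursor protein, held regions of 6.18 and 3.57 at 1.73 and 2.76 kb. Grik2, a kainate receptor subunit, held 1 region of 5.34 at 1.58 kb and 1 of 5.28 at 207 kb. Foxp1, a forkhead transcription factor, held 1 region of 5.91 at 1.27 kb and 1 of 8.97 at 577 kb. Nr3c2, the mineralocorticoid receptor, held a region of 6.34 at 4.43 kb.

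A minority of the regions lay at annotated internal starts, where they were denser than elsewhere. RefSeq lists 1295 starts inside long genes at more than 1 kb from every protein-coding gene end, and 56 of them, 4.32% (3.35 to 5.57%), had a region within 1 kb. The share was 10.1% (7.65 to 13.1%) of 467 starts of the long gene itself and 1.09% (0.573 to 2.05%) of 828 starts of other genes lying within it. The start table has no entry for chromosome 18, so 692 of the 725 regions were placed against starts. It also lacks 188 long genes on other chromosomes, which hold 160 of the 692 regions. Of the 692 regions, 46 (6.65%) lay within 1 kb of an own start, in 0.224% of the bases. That is 53.5 regions per Mb (39.2 to 71.4) near own starts and 1.69 elsewhere, a ratio of 31.7 (23.5 to 42.7). Counted only in long genes with an entry in the table, a setting chosen after seeing the data, the density was 53.5 near own starts and 1.61 elsewhere, a ratio of 33.2. Genes under 200 kb had nearly the same pair of densities, 57.3 near own starts and 1.71 elsewhere, with 25.6% of their 1203 regions near an own start.

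Regions at internal starts had a median log-LR close to that of the other regions, and the few highest values lay elsewhere. The 52 regions within 1 kb of any internal start had a median log-LR of 5.03 and a highest value of 9.04. The 673 other regions, including those not placed against starts, had a median of 4.84 and a highest value of 154. All 21 regions with a log-LR of 10 or more were among the 673, and 15 of the 21 lay in a gene with an entry in the start table. Over all 725 regions 2.90% had such a value, and 52 regions are too few to read their absence as a difference.

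Counting only starts over 10 kb from the 5′ end, which separates them from the cluster just inside the gene, 24 of 371 own starts (6.47%, 4.39 to 9.44%) had a region, in 22 of 249 genes. Within 1 kb of these starts, 11 pairs of a region and a start had the region upstream and 15 had it downstream. Between 1 and 1.5 kb there was 1 region upstream and 0 downstream. Examples chosen after their values were seen follow. Dst, the cytoskeletal linker dystonin, had its start 104 kb from the 5′ end with a best log-LR of 4.57. Dpp10, an auxiliary subunit of voltage-gated potassium channels, had it at 800 kb with 6.59. Fgf12, an intracellular fibroblast growth factor homologue that binds sodium channels, had it at 307 kb with 6.35. Tenm4, a teneurin adhesion protein, had it at 40.4 kb with 8.20.

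The highest value at any internal start was 9.04, at the Rap1gap2 start 88.1 kb into the gene, which is printed above. The other printed starts had a best log-LR of 4.78 for Pid1, 4.08 for Anks1b, 5.21 for Abr, 4.06 for Asic2, 7.50 for Phldb2 and 7.38 for Gse1. Of the 25 regions in listed genes of metabolism, mitochondria and transport, 0 lay near an internal start, against 52 of all 692 placed regions, 7.51%. The count was also 0 in some other lists, among them the 58 regions of fragile site genes, and 1 or more in the rest. Adk, adenosine kinase, which is on no such list here, had a region of 7.82 at a start 23.6 kb into the gene, and Rps6ka2, a ribosomal S6 kinase, had 5.87 at 81.1 kb. At Prkag2, a regulatory subunit of the energy sensor AMP-activated kinase, a region of 5.12 lay 666 bp from an own start, 27 bp from a start of the lncRNA Gm42232 and 999 bp from a start of the lncRNA 2900005J15Rik. Of starts of other genes, Kcnq1ot1, the imprinted antisense lncRNA inside Kcnq1, had a region of 4.99 at 775 bp.

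**Figure D3:**
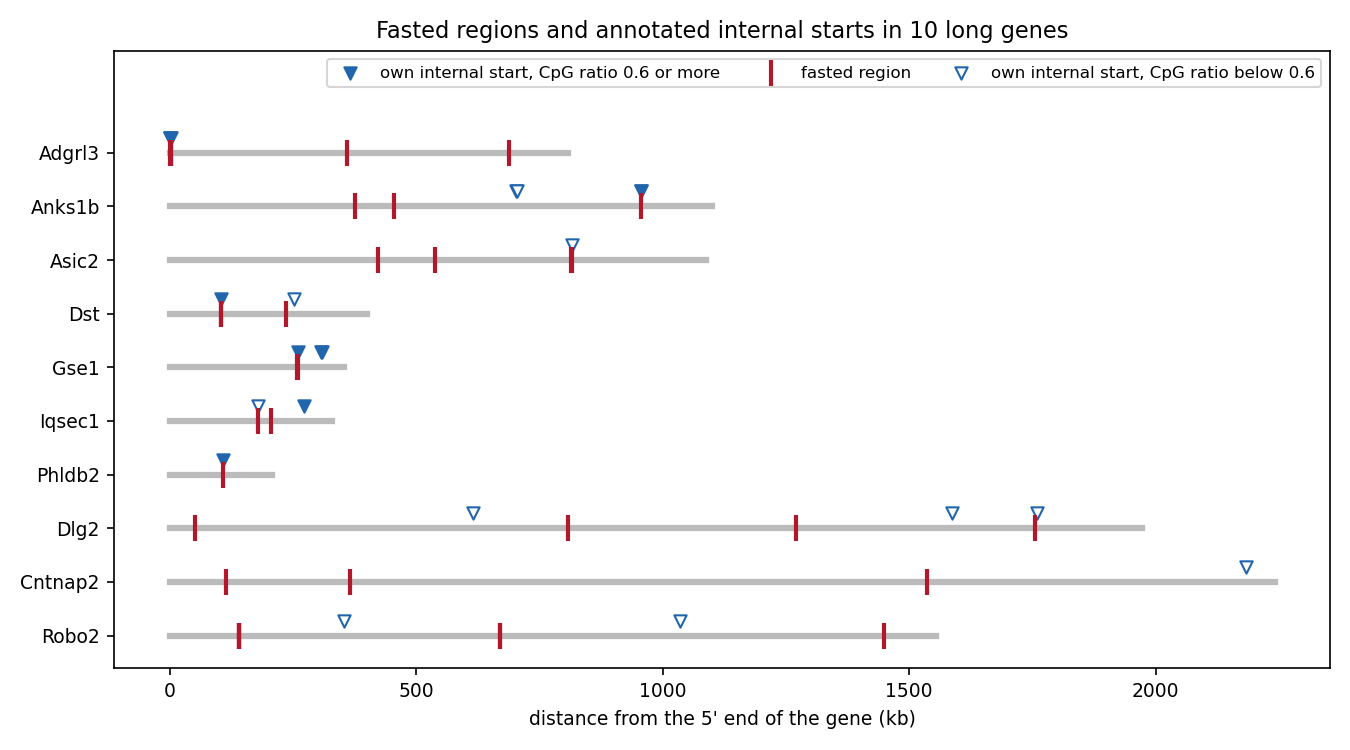
Fasted regions (red bars) and own internal starts (triangles, filled where the CpG ratio is 0.6 or more) along 10 long genes chosen after their values were seen, by distance in kb from the 5′ end, with the gene span in grey. In Anks1b, Asic2, Dst, Gse1, Iqsec1 and Phldb2 a region lies at a start over 10 kb into the gene, while the regions of Cntnap2, Dlg2 and Robo2 lie over 1 kb from their own internal starts.

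Starts rich in CpG carried regions more often. The CpG ratio of a window is its count of CG divided by the count that its C and G content would give, so low values mark depletion. Of own internal starts with a ratio of 0.8 or more, 24 of 79 had a region, 30.4% (21.3 to 41.2%). With a ratio of 0.6 to 0.8 it was 15 of 63, 23.8%. It was 7 of 96, 7.29%, at 0.4 to 0.6 and 1 of 147, 0.680%, at 0.2 to 0.4. Below 0.2 it was 0 of 82, which allows a share of up to 3.66%. Of the 47 own starts with a region, 39 had a ratio of 0.6 or more. The 47 starts lie in 41 genes, and some neighbouring starts share a region and part of their window. The intervals on shares of starts count each start as independent and are therefore too narrow.

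The same gradation held away from the 5′ end and in the other sets of starts. Over 10 kb into the gene, 18 of 78 starts with a ratio of 0.6 or more had a region, 23.1% (15.1 to 33.6%), against 6 of 293 with a lower ratio, 2.05%. At starts at the ends of long genes the share ran from 2.86% below 0.2 to 25.4% at 0.8 or more, and at own internal starts of genes under 200 kb from 0.262% to 31.4%. Windows of own internal starts with a region had a median GC content of 68.0% and 28 CpGs, against 51.0% and 7 CpGs in own internal starts without one. GC content thus moved with the CpG ratio, and its part in these shares was not tested. Whether the starts were transcribed in these mice was not measured here.

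**Figure D4:**
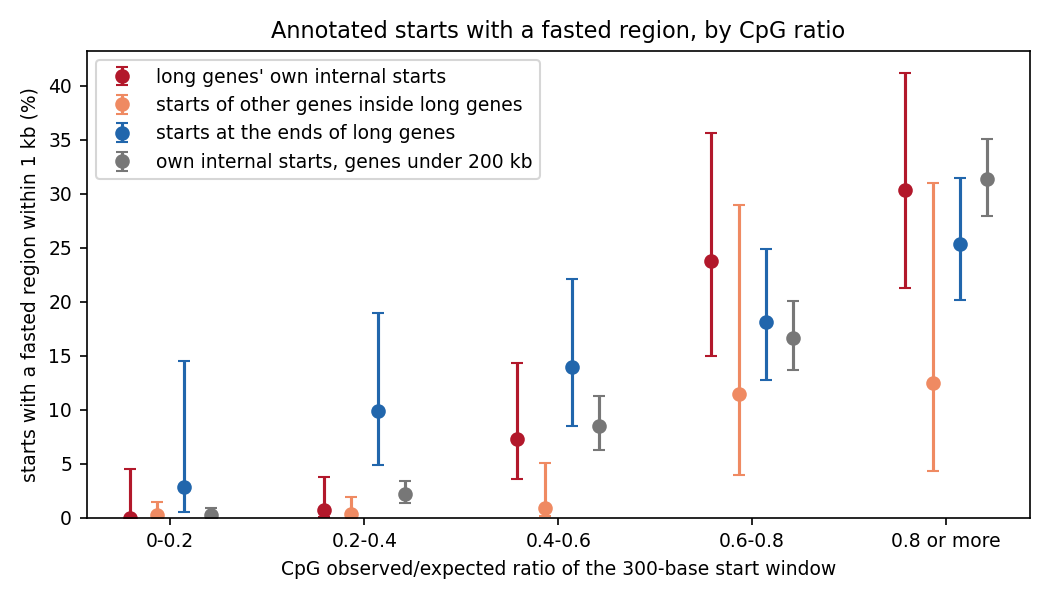
Share of starts with a fasted region within 1 kb (percent, with Wilson intervals) by CpG ratio of the 300-base window, for own internal starts of long genes (red), starts of other genes inside long genes (orange), starts at the ends of long genes (blue) and own internal starts of genes under 200 kb (grey). Own internal starts of long genes go from 0 of 82 in the lowest class to 30.4% in the highest.

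Letters of known motifs were looked for on both strands of the same windows. CAGCTG, an E-box, was in 4 of 47 windows of own starts with a region, 8.51%, against 19.3% of those without and 16.3% of all 32851 RefSeq start windows. GCCATNTTG, bound by YY1, was in 3 windows, 6.38%, against 1.43% without a region and 2.51% of all, and 2 of the 3 windows are starts of Eif4g3 that lie 1 base apart. TGACGTCA, the cyclic AMP response element, was in 2.13%, against 0.952% without a region and 1.79% of all. TGANTCA, the AP-1 site, was in 6.38%, against 8.57% and 7.81%. CACGTG, another E-box, was in 4.26%, against 5.48% and 7.15%. TGTTTAC, a forkhead site, was in 2.13%, against 3.33% and 3.65%. The full palindromic glucocorticoid response element and the core motif of the insulator protein CTCF were in no window of either set of own starts. They were in only 3 (0.00913%) and 26 (0.0791%) of all 32851 windows, so their absence here says little. Some of these counts are of 1 window, and overlap between motifs was not removed.

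The 20 regions of highest log-LR lay at least 9.68 kb from the nearest protein-coding gene end, and none lay within 1 kb of an internal start in the RefSeq table. Of the 20, 14 lay in a gene with an entry in that table. Over all 692 placed regions, 52 (7.51%) lay within 1 kb of an internal start. Exons and introns were not separated, because no exon table was used here. The highest, 154, was a region of 181 bp in Chl1, a neural cell adhesion molecule, at chr6:103649083-103649263. It lay 83.9 kb from the nearest gene end, and the other 2 regions of Chl1 had 5.57 and 4.69. Klhl1, a kelch family protein of neurons, held 1 of 73.7 at chr14:96351341-96351518. Dgki, a diacylglycerol kinase, held 1 of 69.8 at chr6:37207221-37207464. A region of 53.4 lay where Cmss1 and Filip1l overlap, so its gene is uncertain. Lrmda, a melanocyte differentiation gene, held regions of 52.7 and 14.8. Camta1, a calmodulin-binding transcription activator, held 24.9 and 13.2, and Ulk4, a pseudokinase, held 24.3.

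Further genes among the 20 highest had lower values. Fhit, a hydrolase encoded across a common fragile site, had 16.1, and Ttll11, a tubulin-modifying enzyme, had 14.7. Dnah14, a dynein heavy chain, had 13.7, Fmnl2, an actin-nucleating formin, had 13.5 and Nell2, a secreted neuronal glycoprotein, had 12.5. Srgap1, which acts downstream of the Robo receptors, had 12.3 and Naaladl2 had 12.1. For 3 of the 20 an annotated non-coding gene shares the position. These are Gm7592 at 11.9 with the pseudogene Gm7281, Adamts6, a metalloprotease, at 11.8 with the pseudogene Gm8680, and Epha3, an ephrin receptor, at 11.3 with the lncRNA Gm41466. Pseudogenes resemble other loci, and how reads with several matches were treated is not given in the sources used here.

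Most regions had no close neighbour. The median gap to the next fasted region was 129 kb, and 76.7% had none within 10 kb. Joining regions within 1 kb gave 663 groups, of which 607 were single, 51 were pairs, 4 held 3 regions and 1 held 4. Groups of 3 lay in Robo2, an axon guidance receptor, Sdk1, a synaptic adhesion protein, and Npsr1, the neuropeptide S receptor.

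Zfp993 held the most regions, 11, at 23.0 per Mb, and Gm7592 and Gm21154 held 6 each, at 26.2 and 21.7 per Mb. Near-identical copies would leave the origin of reads at these 3 genes uncertain, and whether such copies exist was not checked here. Next came Robo2, with 6 regions of 4.90, 4.91, 5.02, 6.84, 9.29 and 4.39, of which 3 lay between 139.9 and 141.2 kb from its 5′ end. Rsrc1, a splicing-related protein, held 6 regions of 3.91 to 6.12, between 46.8 and 181 kb from its 5′ end. Gpc5, a heparan sulphate proteoglycan of astrocytes, held 5 of 9.08, 4.20, 8.67, 5.76 and 5.62. Lrp1b, a receptor of the low-density lipoprotein receptor family, held 5 between 3.89 and 5.82, and Tenm3, a teneurin, held 5 of which the lowest had 3.74. Genes with 4 regions included Spag16, a sperm flagellum protein, Pcdh15, a protocadherin, Fhit, Lrmda and Dlg2. The regions of Dlg2 had 9.82, 8.23, 5.79 and 3.48.

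By density, other leading genes were Rsrc1 with 15.9 per Mb, Abr and Thada with 14.5 each, Nubpl, an assembly factor of mitochondrial complex I, with 14.1, Npsr1 with 13.7 and Chl1 with 13.5. Each rests on 3 to 6 regions in a gene of 207 to 377 kb. The widest region, of 1268 bp with a log-LR of 5.12, lay in Sox6, a transcription factor of interneurons and glia. Rabgap1l followed with 884 bp, Chl1 with 683 bp, Arid1b, a chromatin remodelling subunit, with 656 bp and Cntnap2 with 639 bp. The other wide regions, of 566 to 624 bp, lay in Cep128, Epha3, Nell1, Abr and Fhit.

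Of the 20 longest genes, 19 held a region. Ptprd, a receptor phosphatase of 2270.5 kb, held 2, Cntnap2 of 2241.3 kb held 3 and Lsamp, an IgLON adhesion protein of 2197.4 kb, held 3. The longest gene with none was Rbfox1, a neuronal splicing regulator of 1527.7 kb. The next were Cntn5, a contactin, Cdh12, a cadherin, Kcnip4, a potassium channel interacting protein, Ctnna2, a catenin of neurons, and Erbb4, a neuregulin receptor. Cntn4, Cadm2 and Grm7, a metabotropic glutamate receptor, were also among the 10 longest with none inside. Grm7 had a region within 1 kb of an end. Of 55 genes of 1000 kb or more, 8 held none.

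Long genes with and without a region inside had nearly the same share with a region at an end. Of the 430 long genes with a region inside, 64 also had one within 1 kb of an end, 14.9% (11.8 to 18.6%). Of the 515 with none inside, 79 did, 15.3% (12.5 to 18.7%). The 2 sets were not matched for length, with medians of 384 kb and 294 kb. The share with a region at an end was 15.8% in genes of 200 to 300 kb and 17.0% at 300 to 500 kb. It was 12.4% at 500 to 1000 kb and 7.27% at 1000 kb or more. Over genes of any length 12.2% had a region at an end, and over all long genes it was 143 of 945, 15.1%. Of the 41 long genes with a region at an own internal start, 2 also had one at an end, 4.88%, against 24 of 272 other genes with own internal starts, 8.82%.

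Functional lists of long genes were read against the 45.5% of all long genes with a region, and their members were counted without a set test. The lists were not matched for length, and the share rose from 33.7% at 200 to 300 kb to 85.5% at 1000 kb or more. A list of longer genes can thus lie above 45.5% while its density lies below the 1.83 regions per Mb of all long genes. Of 35 neurexin, contactin, IgLON and similar adhesion genes, 21 held a region, 60.0%, with 44 regions at 1.52 per Mb. Opcml and Lsamp, both IgLON proteins, had best values of 8.46 and 6.58, and Tenm4 had 8.20. The adhesion genes had a median length of 755 kb, and with regions of log-LR 5 or more 7 of the 35 held one, against 29.0% of all long genes, so their place above the share of all long genes was lost. Axon guidance genes held a region in 13 of 21, 61.9%, at 2.25 per Mb, with Srgap1, Epha3, Robo2 and the netrin receptor Unc5c, at 7.35, in the lead. At log-LR 5 or more they held one in 38.1%. Cadherins and catenins, with a median length of 857 kb, held one in 7 of 15, 46.7%, at 1.52 per Mb. They were led by Pcdh15 at 9.85 and Ctnna3 at 7.94. Receptor tyrosine phosphatases held one in 3 of 7, led by Ptprn2 at 7.98 and Ptprd at 7.71.

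Channel genes were the list with the smallest share. The list of voltage-gated and calcium-release channels also holds auxiliary subunits, such as Dpp10, and other channels, such as Nalcn and Kcnn2. Of its 33 genes, 9 held a region, 27.3% (15.1 to 44.2%), at 0.902 per Mb (0.505 to 1.49), and at log-LR 5 or more 15.2% did. Those with one included Nalcn, a sodium leak channel, at 7.72, Kcnn2, a calcium-activated potassium channel, at 7.57, Dpp10 at 6.59 and the potassium channel Kcnq5 at 6.00. Those with none inside included Cacna1c, Cacna1d and Cacna1e, pore subunits of calcium channels, Ryr2 and Ryr3, calcium-release channels, and Kcnma1. Of these, Ryr2 and Kcnma1 had a region within 1 kb of an end. A region at an end was found in 7 of the 33 channel genes and in 143 of all 945 long genes. Glutamate and GABA receptor genes held one in 9 of 20, among them the kainate subunit Grik4 at 8.50, Grid1 at 6.40 and Gabrb1 at 6.39, and Grin2a had 6.11. Synaptic scaffolds and active zone genes held one in 11 of 27, 40.7%, led by Dlg2 and Dlgap2 at 8.48.

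**Figure D5:**
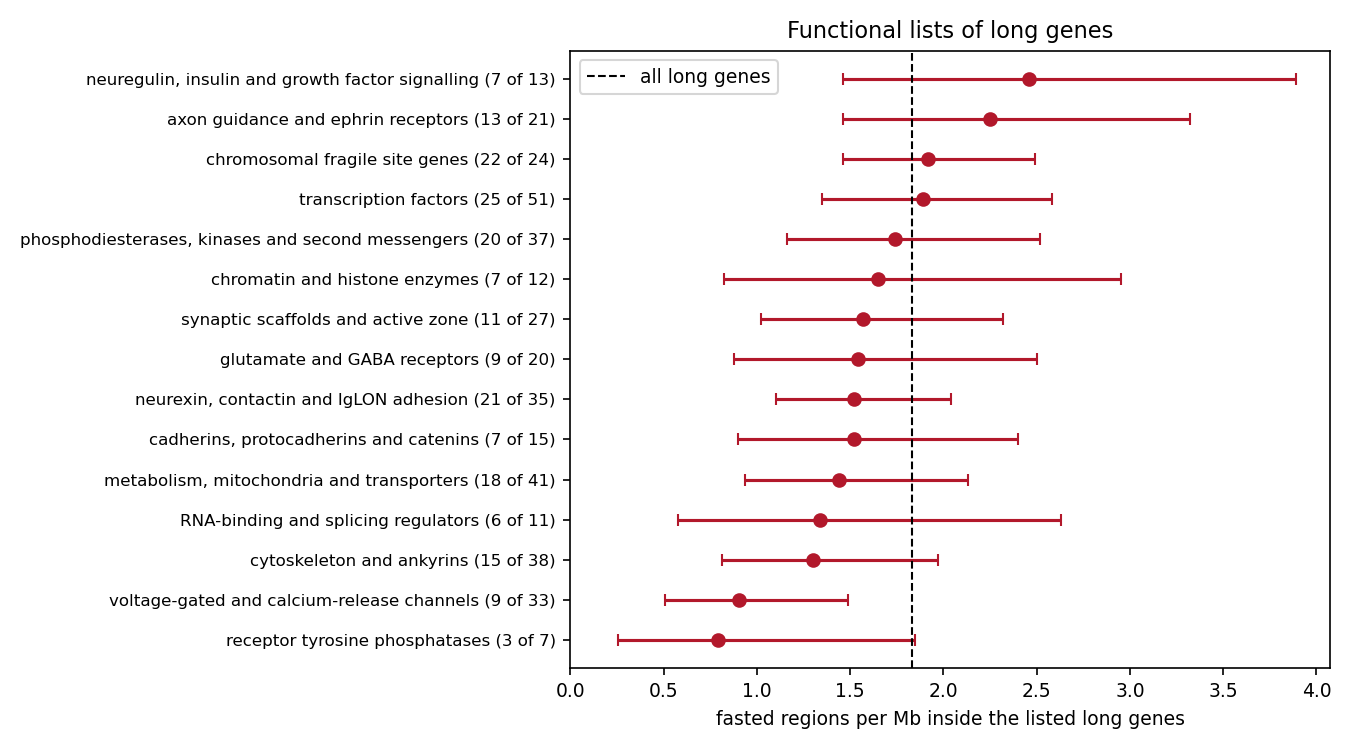
Fasted regions per Mb inside the long genes of 15 functional lists, with exact Poisson intervals, and in brackets the number of listed long genes with a region of those listed. The dashed line marks all long genes at 1.83 per Mb, and the channel list, at 0.902, and the phosphatase list, at 0.794, lie lowest.

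Signalling genes were spread around the share of all long genes. Neuregulin, insulin and growth factor genes held a region in 7 of 13, 53.8% (29.1 to 76.8%), at 2.46 per Mb. Nrg1, a neuregulin, had 7.77 and the neurotrophin receptor Ntrk2 had 6.05. The 7 also include Fgf12 at 7.46, the intracellular homologue described above, and the related Fgf14 at 5.03. Phosphodiesterases, kinases and second messenger genes held one in 20 of 37, 54.1%, at 1.74 per Mb. They were led by Dgki, the cyclic GMP-dependent kinase Prkg1 at 9.49 and the calmodulin-dependent kinase Camk1d at 8.99. Genes of metabolism, mitochondria and transport held one in 18 of 41, 43.9%, led by the mitochondrial carrier Slc25a21 at 9.89, the glycosyltransferase Galntl6 at 9.67, the autophagy enzyme Atg10 at 7.93 and Pcca, a subunit of propionyl-CoA carboxylase, at 6.82.

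Nuclear and structural genes lay on both sides of that share. Transcription factors held one in 25 of 51, 49.0%, at 1.89 per Mb, led by Camta1, Runx1 at 9.44 and Foxp1 at 8.97. With regions within 3 kb of gene ends left out the share was 39.2%, against 41.8% of all long genes. Chromatin and histone enzymes held one in 7 of 12, 58.3%, at 1.65 per Mb, and on the same setting the share was 33.3%. They included Arid1b at 5.84, Auts2 at 5.59 and the histone deacetylase Hdac9 at 4.60. RNA-binding genes held one in 6 of 11, 54.5%, at 1.34 per Mb, led by the splicing regulators Celf4 at 7.64 and Celf2 at 7.26. Cytoskeletal genes held one in 15 of 38, 39.5%, led by Sgcd, a sarcoglycan, at 6.79 and the dynamin Dnm3 at 6.78. Genes at common chromosomal fragile sites held one in 22 of 24, 91.7%, with a median length of 1217.5 kb, and their density of 1.92 per Mb is close to the 1.83 of all long genes. Over all 16 lists, 196 of 405 distinct long genes held a region, 48.4%, against 234 of 540 long genes in no list, 43.3%.

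Long genes known as cell type markers were few in each list, and their counts are set beside the 45.5% of all long genes. Neuron markers held one in 6 of 11, oligodendrocyte lineage markers in 2 of 5, astrocyte markers in 4 of 6, microglia markers in 2 of 6 and endothelial and mural markers in 2 of 4. Genes used mainly outside cortex, among them the muscle protein Ttn, Pkhd1 of kidney and the ciliary Dnah5, held one in 4 of 7. The density was 0.953 per Mb (0.457 to 1.75) in neuron markers and 2.29 (0.842 to 4.99) in the genes used outside cortex, each counted on few regions, against 1.83 in all long genes. Positions in other classes of genes were counted without the share of bases that these classes cover, so the counts are a description only. In all, 34 regions also lay in a lncRNA gene and 14 in a pseudogene, and 0 lay within 1 kb of an end of a miRNA, snoRNA, snRNA, tRNA or rRNA gene.

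The opposite direction gave no regions to describe here. The authors' list for ad libitum mice holds 1 region, and 0 lay inside a long gene.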

How the data were processed

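The submitters' processing notes name Bowtie2, MACS2 and mm10, with no version and no role for each. The authors made 1 list of regions for each direction of the comparison, and the deposited log-LR is used as a score, a log likelihood ratio per region. The sources used here do not give its log base, cutoff, filters, depth scaling or pooling, and a difference in depth or immunoprecipitation yield between groups would move the number of regions. With neither counts nor values for single libraries, depth is unknown and no replicate spread can be given.

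Positions in the lists were read with starts counted from 0, which gives a smallest width of 120 bp, and are printed from 1. Gene spans were taken from RefSeq annotation of GRCm38.p6, and starts, strands and 300-base windows from a RefSeq start table with 32851 windows, which has none on chromosome 18. Density was regions per Mb of gene body over 1 kb from every protein-coding gene end. Shares have 95% Wilson intervals and densities exact Poisson intervals. In the text a count of 0 was bounded at 3 counts, while the figures draw the higher upper end of the Wilson or Poisson interval. Placement was tested on simulated regions. GC content of the regions was planned but not analysed here, as no genome was used.

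The regions, gene lists and named-gene rule were chosen with earlier results of these data known. The rule named the genes of the 20 regions of highest log-LR, the 15 genes with most regions, the 10 densest with 3 or more, up to 5 of each list by log-LR, the 10 longest with none and the 10 widest regions. A few results that the rule takes in are not reported here. Genes named for internal starts, list genes with no region and marker genes were chosen after their values were seen. Computation used Python 3.11.15 with pandas 2.3.3, numpy 2.4.6 and scipy 1.17.1, and figures were drawn with matplotlib 3.10.9. Alternatives varied the length limit, the distance from ends, the runs, the placement, merging, the log-LR limit and the window around starts.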

Additional observations from a re-analysis of the deposited data

Results flagged for a closer look

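Regions inside long genes also occurred outside the set described. On chromosome X, which the set leaves out, 22 fasted regions lay inside 13 of 45 long genes, at 1.10 per Mb (0.692 to 1.67) with a median log-LR of 4.46. F8, a clotting factor, Gabra3, a GABA receptor subunit, Il1rapl2 and Rtl4 held 3 each, and Dmd, dystrophin, held 2 in 2390.4 kb. On chromosome 4, 23 regions inside long genes were left out because they stood in runs. Of these, 22 lay in Zfp978 between positions 147171662 and 147369882 of mm10, with a median log-LR of 5.94, and 1 in Zfp993.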

How the results depend on the processing

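Of 121 values under alternatives, 94 stayed within 1.5 times the reported value (counts) or within its 95% interval (other values), and 27 did not. A gene length of 150 kb or more gave 11.6% of autosomal fasted regions inside long genes, and 300 kb or more gave 7.29%, against 9.86% reported for 200 kb. With 500 bp around gene ends left out, the share was 10.7%, the density 1.97 per Mb and the ratio to shorter genes 0.615. With 3 kb left out, the share was 9.14% and the ratio 0.967. Leaving out runs of 3 or more gave 1.68 per Mb. Merging regions within 1 kb gave 1.66 per Mb and a median log-LR of 5.01. Keeping a log-LR of 5 or more left 337 regions in 274 genes, 0.848 per Mb, a median of 6.12 and 123 listed genes, by its construction. Alternatives chosen after seeing the data gave 3.01% of internal starts with a region within 500 bp, 2.24% at a log-LR of 5 or more, and a density ratio at own starts of 12.8 within 3 kb. The direction of the share of regions under other limits on length and on distance from ends was also fixed by construction. So was that of the share of starts within 500 bp, and merging kept the highest log-LR of joined regions. Apart from these and the log-LR limit, the cause was not tested. Of 48 counts for single lists, 9 moved by over 1.5 times. In 12 of the 48, from 7 lists, the list's share lay on the other side of the share of all long genes, among them adhesion genes at a log-LR of 5 or more and transcription factors and chromatin enzymes at 3 kb. No paired analysis was possible because neither list has values for single libraries, and leaving out libraries was not run for the same reason. GC content in a fixed window was not run, as no genome was used here.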

Other observations

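The density of fasted regions inside long genes differed between chromosomes, from 0.861 per Mb on chromosome 11, with 15 regions in 47 long genes, to 2.30 per Mb on chromosome 18, with 33 regions in 50 long genes. The difference was not tested.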
